A study of Homo sapiens with 4 samples.

Results

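The genes described here are those of the hypoxia-inducible factors (HIF) and a set of their known targets, 10 genes chosen by name from the 64253 gene rows of the count table: HIF1A, EPAS1, ARNT, EGLN1, EGLN3, VEGFA, CA9, NDRG1, BNIP3 and ADM. All 10 were found, and all 10 were among the 17459 genes that passed the filter on low counts. The cells were A549, an established human lung adenocarcinoma line, and RNA was sequenced from 2 libraries of cells transfected with a pENTER plasmid for wild type NFATc2 and 2 libraries of cells transfected with NFATc2M, which lacks a short stretch of the DNA binding domain. All 4 libraries were cultured with OPNc-CM, the conditioned medium of HEK-293 T cells that express isoform c of osteopontin, so neither group is without plasmid or without OPNc, and the labels name no low-oxygen arm. NFATc2 is a transcription factor that moves to the nucleus when calcium activates calcineurin, and the study used NFATc2M as a loss of function reference to find genes that depend on DNA binding by NFATc2. The cells also carry their own NFATC2 gene. Nothing states that the 2 libraries of a group came from separate cultures. The p-values therefore reflect library-to-library spread alone, which could be technical. With 2 libraries a group, edgeR's test draws the spread of each gene towards that of other genes. A p-value of a gene thus rests largely on the spread of other genes. A second deposited sheet holds the same counts without sample names and with the pairs of columns the other way round, so the direction of every difference below rests on the named columns.

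HIF is a dimer of an oxygen-regulated alpha subunit, encoded by HIF1A or EPAS1, and a stable partner encoded by ARNT. With oxygen present, the prolyl hydroxylases encoded by EGLN1 and EGLN3 modify the alpha subunits, the VHL ubiquitin ligase then binds them, and they are degraded. In low oxygen the alpha subunits persist, and the dimer binds hypoxia response elements and raises genes for angiogenesis, acid balance, glycolysis and mitochondrial turnover, in lung cancers as in other tissues. Much of this control acts on protein stability, which counts of mRNA do not show.

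Promoter windows from RefSeq (GRCh38.p14, from 250 bases before to 50 bases after an annotated start) are shown for the members with the highest fold changes, HIF1A and CA9, and for DDIT4 and PFKFB4, the 2 genes of the HIF lists described further on whose difference passed every alternative tried. Capitals mark the core of the hypoxia response element, searched as ACGTG and GCGTG on both strands; ACGTG lies within the E-box CACGTG as well.
HIF1A: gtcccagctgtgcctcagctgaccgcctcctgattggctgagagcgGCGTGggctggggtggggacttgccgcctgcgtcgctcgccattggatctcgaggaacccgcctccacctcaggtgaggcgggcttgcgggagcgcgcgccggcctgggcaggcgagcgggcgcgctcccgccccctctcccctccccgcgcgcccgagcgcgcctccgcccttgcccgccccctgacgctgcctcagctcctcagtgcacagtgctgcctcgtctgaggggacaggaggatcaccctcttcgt
CA9: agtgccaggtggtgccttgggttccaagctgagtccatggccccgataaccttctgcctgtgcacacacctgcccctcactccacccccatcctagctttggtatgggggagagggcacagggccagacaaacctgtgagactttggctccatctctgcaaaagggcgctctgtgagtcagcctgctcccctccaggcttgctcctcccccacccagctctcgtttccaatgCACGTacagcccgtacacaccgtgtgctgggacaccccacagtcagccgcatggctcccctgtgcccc
DDIT4: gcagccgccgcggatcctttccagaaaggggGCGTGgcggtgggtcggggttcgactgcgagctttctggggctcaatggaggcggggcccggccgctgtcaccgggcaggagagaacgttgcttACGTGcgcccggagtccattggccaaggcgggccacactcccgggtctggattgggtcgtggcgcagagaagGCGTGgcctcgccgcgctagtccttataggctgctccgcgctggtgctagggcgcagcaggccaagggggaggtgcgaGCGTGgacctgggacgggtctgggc
PFKFB4: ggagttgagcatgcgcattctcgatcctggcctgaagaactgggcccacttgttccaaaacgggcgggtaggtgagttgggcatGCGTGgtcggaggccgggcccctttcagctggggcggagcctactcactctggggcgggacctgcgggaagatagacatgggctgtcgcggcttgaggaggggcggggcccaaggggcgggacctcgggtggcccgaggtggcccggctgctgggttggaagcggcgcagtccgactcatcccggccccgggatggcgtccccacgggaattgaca
The windows lie on chr14:61695263-61695562 (plus strand, HIF1A), chr9:35673678-35673977 (plus strand, CA9), chr10:72273674-72273973 (plus strand, DDIT4) and chr3:48556754-48557053 (minus strand, PFKFB4). The HIF1A, CA9 and PFKFB4 windows hold 1 match each and the DDIT4 window 4. The match of CA9 lies close to its start and reads ACGTG on the opposite strand, that of HIF1A and that of PFKFB4 read GCGTG, and DDIT4 has both forms. RefSeq windows were matched for 8 of the 10 genes, with 9 windows because HIF1A has 2 starts. A match was found in 6 of these 9 windows (66.7%). BNIP3 had 6 matches, of which 2 overlap as the 2 strands of a single CACGTG. EGLN1, EPAS1 and ADM had 1 each, and ARNT, EGLN3 and the second HIF1A window had none. Over all 35116 windows of the same length 48.4% hold a match, and 21.4% hold ACGTG, against 3 of the 9 windows of the 10 genes. A match is a description of the letters and not a bound site.

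Of the 10 genes, HIF1A was higher and NDRG1 lower in NFATc2 than in NFATc2M libraries at an adjusted p of 0.05 from edgeR's quasi-likelihood test, and the other 8 did not pass. Over all 17459 genes tested 8.64% passed, 4.9% higher (856 genes) and 3.73% lower (652), and whether 2 of 10 differs from that share was not tested. The 10 genes were chosen with earlier results of these data known, so their shares are descriptions. Upper quartile scaling gave 662 higher and 864 lower genes, and library size scaling gave 556 higher and 707 lower. Among the 10 genes, upper quartile scaling gave 1 higher and 2 lower, VEGFA being the added gene. The median log2 fold change was 0.10 over the 10 genes and 0.00061 over all genes tested, and 6 of the 10 values were positive. In CPM (counts scaled by the TMM-adjusted library size), the groups did not overlap for 7 of the 10 genes, against 53.1% of all genes tested. The count at an unadjusted p under 0.05 was 4 of 10, beside 4071 of the 17459 genes tested, and whether these shares differ was not tested.

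**Figure D1:**
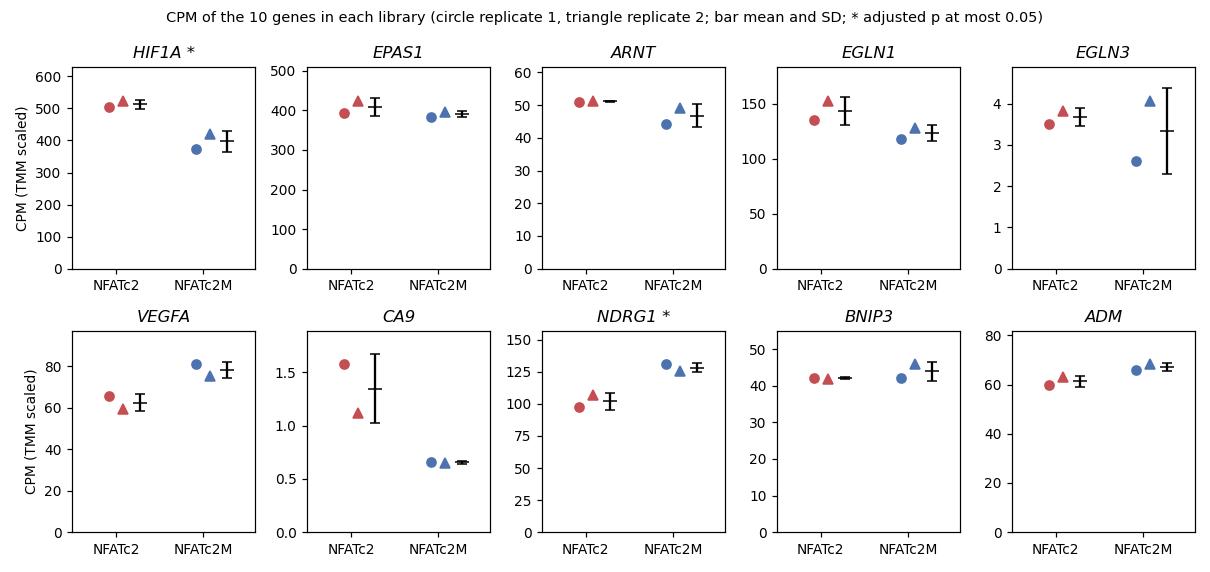
CPM (vertical axis, from 0) of each of the 10 genes in the 2 NFATc2 libraries (red, left) and the 2 NFATc2M libraries (blue, right), circles for replicate 1 and triangles for replicate 2, with the mean and SD beside them. HIF1A (503 and 523 against 375 and 419 CPM) and CA9 lie higher with NFATc2, NDRG1 and VEGFA lower, and EPAS1, EGLN3 and BNIP3 overlap.

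Depth was alike in the 4 libraries, with 21011786 to 23527259 counts in genes. HTSeq's summary categories, kept out of every test, held 56.4% to 57.4% of each library's total. Most of this was the category of reads on no counted feature, 43.99% to 44.59% of each total, and its cause was not tested. NFATC2, the plasmid gene, had 2211 and 2521 CPM with NFATc2 and 2581 and 2435 CPM with NFATc2M (log2 fold change -0.08, with a standard error (SE) of 0.10, edgeR adjusted p = 0.67), and since both plasmids carry most of the gene, this cannot check the labels. None of the 8 A549 markers passed (edgeR adjusted p of 0.11 to 0.95, and KRT18 alone at an unadjusted p under 0.05). That test compares the groups and does not show which cells these were. The markers ran from 48 to 70 counts for EPCAM to 69393 to 89219 for ALDH1A1. CDKN2A and CDKN2B, which A549 cells lack, had 0 counts, while MTAP, deleted with them, had 2 to 7. Of 6 HEK-293 T markers 5 were tested and did not pass (edgeR adjusted p of 0.29 to 0.82). INA was the highest of these with 1405 to 1864 counts, and LIN28A had 0. NEFL had 148 to 198, LIN28B 60 to 127, PAX2 28 to 52 and NEFM 9 to 18. Over 17163 genes (not independent replicates) the log2 fold change was lower where exonic GC content was higher (Pearson's r = -0.46). For the 10 genes and the list genes past the test, GC content is therefore given with the value from a fit whose offset takes out the trend of each library over GC content and length. In bulk RNA, fewer cells that express a gene and less RNA per cell cannot be told apart.

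Among the factors, HIF1A, the oxygen-regulated alpha subunit, lies on chromosome 14 of GRCh38 from 61695513 to 61748259. It had 10872 and 12143 counts with NFATc2, against 7924 and 9073 counts with NFATc2M, which is 503 and 523 CPM against 375 and 419 CPM. Both NFATc2 libraries lay above both NFATc2M libraries, and the lower NFATc2M library was replicate 1. The means were 513 ± 14.2 CPM with NFATc2 and 397 ± 31.6 CPM with NFATc2M (SD, n = 2 each), a log2 fold change of 0.37 with a 95% interval from 0.17 to 0.57 (SE 0.10, edgeR adjusted p = 0.012). HIF1A had the lowest exonic GC content of the 10 genes, 38.7% against a median of 48.7% over all genes tested, and with the offset its log2 fold change was 0.10, with an interval from -0.05 to 0.26 (edgeR adjusted p = 0.52, where the 15 alternatives ranged from 0.0064 to 0.55). It also did not pass without either NFATc2 library or without NFATc2M replicate 1 (edgeR adjusted p = 0.071 and 0.21 without NFATc2 replicates 1 and 2, and 0.39 without NFATc2M replicate 1), and its log2 fold change stayed positive in all 15 alternatives. HIF1A-AS1, an antisense RNA that shares 133 of the 5151 exonic bases of HIF1A, had 1399 and 876 counts with NFATc2 and 1084 and 1131 counts with NFATc2M, a log2 fold change of -0.02 that did not pass (edgeR adjusted p = 0.97). HIF1A-AS3, which shares 299 bases, had at most 7 counts, and whether reads were counted by strand is not stated in the sources used here.

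EPAS1, the second alpha subunit, and ARNT, the shared partner, did not pass. EPAS1, on chromosome 2 from 46293667 to 46386697, had 392 and 424 CPM with NFATc2 and 385 and 396 CPM with NFATc2M, and the groups overlapped. Its log2 fold change was 0.06, with a 95% interval from -0.14 to 0.27 (edgeR adjusted p = 0.76). ARNT, on chromosome 1 from 150809713 to 150876708, had 51.0 and 51.3 CPM with NFATc2 and 44.2 and 49.3 CPM with NFATc2M. The groups did not overlap, yet the NFATc2M libraries differed from each other by more than NFATc2M replicate 2 did from either NFATc2 library, and the log2 fold change of 0.13 had an interval from -0.13 to 0.39 (edgeR adjusted p = 0.59). Exonic GC content was 53.2% for EPAS1 and 45.4% for ARNT, and with the offset EPAS1 had the larger value, 0.17 against 0.06 for ARNT. Per length, as TPM computed over the joined bases of all annotated exons, HIF1A and EPAS1 stood first and second of the 10 genes in every library. HIF1A was at 310 and 328 TPM with NFATc2 and 237 and 267 TPM with NFATc2M, and EPAS1 at 171 and 188 TPM with NFATc2 and 172 and 178 TPM with NFATc2M. The ratio of HIF1A to EPAS1 in TPM was thus 1.81 and 1.75 with NFATc2 against 1.38 and 1.5 with NFATc2M, given as a description without a test. The higher ratio with NFATc2 has no counterpart in the fit with the offset, where the log2 fold change of HIF1A (0.10) was below that of EPAS1 (0.17). ARNT was seventh at 22.4 to 25.7 TPM, so its mRNA was well below that of either alpha subunit. ARNT2, in the list of pathway machinery described further on, was above ARNT in every library. It had 27.0 and 27.4 TPM with NFATc2 and 29.0 and 27.6 TPM with NFATc2M (log2 fold change -0.03, edgeR adjusted p = 0.92).

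Of the prolyl hydroxylases, EGLN1, known as PHD2 and the main oxygen sensor of the pathway, lies on chromosome 1 from 231363751 to 231422287. It had 135 and 152 CPM in the NFATc2 libraries and 118 and 128 CPM in the NFATc2M libraries. Both NFATc2 libraries lay above both others, but NFATc2 replicate 1 was close to NFATc2M replicate 2, and the log2 fold change of 0.22 (95% interval 0.0016 to 0.44, SE 0.11) did not pass the adjustment (edgeR adjusted p = 0.21). The direction of EGLN1 was the same in all 15 alternatives, with log2 fold changes of 0.12 to 0.31, and it passed in none. At an exonic GC content of 45.3%, it was 0.15 with the offset. Of its 5381 exonic bases 3004 (55.8%) also belong to a same-strand protein-coding gene of GENCODE 44, ENSG00000287856, which was not among the genes counted. EGLN3, known as PHD3 and induced by HIF in many cells, lies on chromosome 14 from 33924227 to 34462774 and was low, with 76 and 89 counts with NFATc2, against 55 and 88 with NFATc2M. NFATc2M replicate 1 was the low library, and the groups overlapped. Its log2 fold change of 0.14 had a 95% interval from -0.47 to 0.75 (edgeR adjusted p = 0.83) and was -0.15 without NFATc2M replicate 1. With the offset it was 0.11, at an exonic GC content of 46.8%.

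Of the 5 targets, NDRG1 passed the test and VEGFA, CA9, BNIP3 and ADM did not. VEGFA, the growth factor of blood vessels, lies on chromosome 6 from 43770184 to 43786487. It had 65.5 and 59.5 CPM with NFATc2 and 80.9 and 75.3 CPM with NFATc2M. Every NFATc2 library was below every NFATc2M library, by more than the spread within either group, but the log2 fold change of -0.32 (95% interval -0.56 to -0.08, SE 0.12) did not pass (edgeR adjusted p = 0.074). VEGFA passed with upper quartile scaling, with a filter of 50 counts and with the replicate number as a block (edgeR adjusted p = 0.044, 0.046 and 0.049), over a range of 0.044 to 0.49 in its 15 alternatives. An antisense RNA shares 188 of the 14431 exonic bases of VEGFA (1.3%), and a same-strand RNA that was not counted shares 753 of the 12002 of NDRG1 (6.27%). NDRG1, a stress-response protein whose mRNA rises in hypoxia, lies on chromosome 8 from 133237175 to 133302022. It had 97.5 and 107 CPM with NFATc2 against 131 and 126 CPM with NFATc2M. The means were 102 ± 6.49 CPM and 128 ± 3.64 CPM (SD, n = 2 each) in that order, and the groups did not overlap. The log2 fold change of NDRG1 was -0.33 (95% interval -0.55 to -0.11, SE 0.11, edgeR adjusted p = 0.047), which lies at the threshold. It did not pass with limma voom, with legacy=FALSE, with every gene of at least 1 count, with the offset, without NFATc2 replicate 1, without NFATc2 replicate 2 and without NFATc2M replicate 1 (adjusted p = 0.053, 0.052, 0.068, 0.20, 0.36, 0.18 and 0.33 in this order, of a range from 0.027 to 0.36 over 15 alternatives). The exonic GC content was 55.6% for VEGFA and 53.8% for NDRG1, and with the offset their log2 fold changes were -0.15 and -0.20.

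CA9, the cell-surface carbonic anhydrase that is among the most oxygen-sensitive HIF targets, lies on chromosome 9 from 35673928 to 35681159. It had 34 and 26 counts with NFATc2, against 14 and 14 with NFATc2M, or 1.57 and 1.12 CPM against 0.66 and 0.65 CPM. The groups did not overlap and the ratio of mean CPM was 2.06, yet with so few counts the log2 fold change of 1.03 had a 95% interval from -0.08 to 2.14 (SE 0.56, edgeR adjusted p = 0.25). CA9 had the highest GC content of the 10 genes, 59.9%, and its log2 fold change with the offset was 1.32 (edgeR adjusted p = 0.18, of a range from 0.18 to 0.65 over the alternatives that gave a value). Of its 1598 exonic bases 571 (35.7%) lie opposite exons of ARHGEF39, which had 737 and 809 counts with NFATc2 and 831 and 778 counts with NFATc2M, far more than CA9 had. The part of such reads in the CA9 counts was not tested. ADM, which encodes the vasodilator peptide adrenomedullin, lies on chromosome 11 from 10305073 to 10307397. It had 59.7 and 62.9 CPM with NFATc2 and 65.9 and 68.2 CPM with NFATc2M. Its log2 fold change of -0.13 (95% interval -0.37 to 0.11, edgeR adjusted p = 0.57) turned to 0.14 with the offset, at an exonic GC content of 59.0%. BNIP3, a mitochondrial protein of the BCL2 family that triggers mitophagy, lies on chromosome 10 from 131967684 to 131981967. It had 42.2 and 41.8 CPM with NFATc2 and 42.2 and 45.8 CPM with NFATc2M, with overlapping groups. Its log2 fold change was -0.07 (95% interval -0.33 to 0.20, edgeR adjusted p = 0.82), and -0.02 with the offset at an exonic GC content of 49.7%. Of the 44 counted pseudogenes named for BNIP3, 5 had a count, and they summed to 15 to 38 counts a library beside 892 to 992 for BNIP3 itself. In TPM, ADM and EGLN1 followed the alpha subunits, at 81.4 to 96.0 TPM for ADM and 71.6 to 91.5 TPM for EGLN1, ranges that overlap. BNIP3 (33.0 to 37.1 TPM) and NDRG1 (25.7 to 35.5 TPM) came next and also overlapped, VEGFA had 13.3 to 18.3 TPM, and CA9 (1.33 to 3.12 TPM) and EGLN3 (1.15 to 1.81 TPM) were lowest. This order depends on the lengths used, which join all annotated exons of a gene. They were 12002 bases for NDRG1 and 14431 for VEGFA, against 4050 for BNIP3 and 2325 for ADM. In CPM, NDRG1 (97.5 to 131) lay above ADM (59.7 to 68.2), and VEGFA (59.5 to 80.9) above BNIP3 (41.8 to 45.8).

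**Figure D2:**
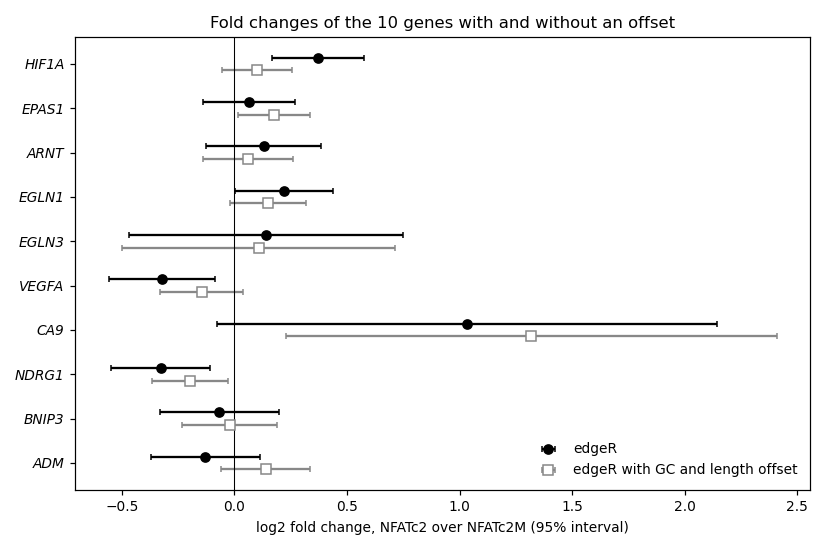
Log2 fold change of NFATc2 over NFATc2M (horizontal axis) with its 95% interval for each of the 10 genes, without (filled circles) and with (open squares) the offset for GC content and length in edgeR. HIF1A was at 0.10 with the offset and 0.37 without it, ADM at 0.14 with it and -0.13 without it, and the interval of CA9 is the widest.

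The other genes of the pathway were described through 4 lists with 80 genes, of which 75 were tested, 6 rose and 2 fell by the same edgeR test, leaving 67 that did not pass. The 8 genes that passed are 10.7% of those tested, beside 8.64% over all genes (4.9% higher and 3.73% lower). The median log2 fold change was 0.02 against 0.00061. The lists were chosen with earlier results of these data known. These shares, and those of each list below, are therefore descriptions, and whether they differ from the share over all genes was not tested. With upper quartile or library size scaling the split was 3 higher and 3 lower, and without either NFATc2 library or without NFATc2M replicate 1 it was 0 higher and 2 lower in each fit.

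The machinery of the pathway gave 1 call among 15 tested genes of 16 listed, 1 higher and 0 lower in edgeR, with a median log2 fold change of -0.12. At an unadjusted p under 0.05 there were 4 of the 15, beside 4071 of the 17459 genes tested. Upper quartile and library size scaling each gave 0 higher and 1 lower, and the fit without NFATc2M replicate 2 gave 0 higher and 2 lower. CUL2, the cullin scaffold of the VHL ubiquitin ligase, lies on chromosome 10 from 35008504 to 35127006. It had 56.8 and 62.5 CPM with NFATc2 and 46.0 and 45.6 CPM with NFATc2M, groups that did not overlap. Its log2 fold change was 0.38 (SE 0.13, edgeR adjusted p = 0.042) at an exonic GC content of 41.0%, and it was 0.19 with the offset, which did not pass (adjusted p = 0.35, over a range of 0.028 to 0.42 in 15 alternatives). CUL2 missed the threshold whichever of the 4 libraries was removed. VHL itself, the substrate receptor, had 996 and 898 counts with NFATc2 and 978 and 1037 counts with NFATc2M (log2 fold change -0.15, edgeR adjusted p = 0.53), and HIF1AN, the asparaginyl hydroxylase of the alpha subunits, had a log2 fold change of 0.09 (edgeR adjusted p = 0.69). Below 0 but not past the test were P4HTM, a transmembrane prolyl hydroxylase, at -0.46 on the log2 scale (edgeR adjusted p = 0.053), CITED2, which competes with HIF for its coactivators, at -0.44 (0.091), and ELOB, an elongin of the VHL ligase, at -0.29 (0.11). HIF3A, a further alpha subunit, had 0 counts in each library.

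Among 25 genes of glucose metabolism, all tested, 1 rose and 1 fell. LDHA, which converts pyruvate to lactate, lies on chromosome 11 from 18394560 to 18408425. It had 1883 and 1971 CPM with NFATc2 and 1464 and 1563 CPM with NFATc2M. Its log2 fold change was 0.35 (SE 0.10, edgeR adjusted p = 0.016), and with the offset, at an exonic GC content of 43.6%, it was 0.23 and did not pass (adjusted p = 0.094, over a range of 0.0079 to 0.38). PFKFB4, an enzyme that sets the level of a sugar bisphosphate and so the rate of glycolysis, lies on chromosome 3 from 48517684 to 48562015. It had 21.2 and 26.8 CPM with NFATc2 against 41.4 and 43.3 CPM with NFATc2M. Both NFATc2 libraries were far below both NFATc2M libraries, with a log2 fold change of -0.82 (SE 0.15, edgeR adjusted p = 3.6e-05). PFKFB4 passed in all 15 alternatives, with log2 fold changes of -1.002 to -0.65 and adjusted p-values up to 0.025. Its exonic GC content was 55.7%, and with the offset it was -0.65. The other 23 genes of this list did not pass. Among them PGK1, GAPDH, ENO1 and PKM, enzymes of lower glycolysis, had log2 fold changes of 0.04, 0.04 (0.33 with the offset, which passed), 0.06 and 0.05, and SLC2A1, the glucose transporter GLUT1, had -0.19 (edgeR adjusted p = 0.26). The median log2 fold change of the 25 genes was 0.0096 without the offset and 0.14 with it. At an unadjusted p under 0.05 in edgeR were 4 of the 25 without it and 11 with it. Over all 17459 genes tested those counts were 4071 and 3093.

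Of 19 genes of vessels, matrix and iron, 15 were tested, 3 rose and 0 fell, while 4 (FLT1, EPO, CXCR4 and TF) lay below the filter with at most 6 counts in a library. The 3 are 20% of those tested, beside 4.9% higher over all genes tested, and whether these shares differ was not tested. P4HA1 and PLOD2, a prolyl and a lysyl hydroxylase of collagen, and TFRC, the transferrin receptor, had log2 fold changes of 0.53, 0.33 and 0.34 (edgeR adjusted p = 0.011, 0.032 and 0.024). P4HA1 had 36.3 and 35.8 CPM with NFATc2 and 24.4 and 25.5 CPM with NFATc2M, PLOD2 270 and 263 CPM against 195 and 228 CPM, and TFRC 298 and 338 CPM against 229 and 273 CPM. In each of the 3 genes, picked because they passed, the NFATc2 libraries lay above the NFATc2M libraries. Groups did not overlap for 53.1% of all genes tested. Their exonic GC contents were 40.2%, 36.0% and 42.2%, and with the offset none passed, at 0.33, -0.01 and 0.20 on the log2 scale (adjusted p = 0.13, 0.96 and 0.17). Without either NFATc2 library or without NFATc2M replicate 1 none of the 3 passed. With upper quartile and library size scaling P4HA1 alone passed, with edgeR adjusted p = 0.052 and 0.056 for TFRC and 0.068 and 0.066 for PLOD2. HMOX1, heme oxygenase, had a log2 fold change of 0.06 that did not pass, and 0.32 with the offset, which did.

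Of 20 genes of survival, pH and feedback, all tested, 1 rose and 1 fell. ERO1A, an oxidase that forms disulfide bonds in the endoplasmic reticulum, lies on chromosome 14 from 52639915 to 52695900. It had 127 and 123 CPM with NFATc2 and 85.8 and 99.2 CPM with NFATc2M (log2 fold change 0.43, SE 0.11, edgeR adjusted p = 0.0068). With the offset, at an exonic GC content of 38.8%, it was 0.17 and did not pass (adjusted p = 0.29, over a range of 0.0041 to 0.29), and it did not pass without either NFATc2 library or without NFATc2M replicate 1. DDIT4, the stress-induced inhibitor of mTORC1 also called REDD1, lies on chromosome 10 from 72273919 to 72276036. It had 3040 and 3061 counts with NFATc2, against 4671 and 4201 with NFATc2M, or 141 and 132 CPM against 221 and 194 CPM. The groups were well apart, with 136 ± 6.21 CPM with NFATc2 and 207 ± 18.9 CPM with NFATc2M (SD, n = 2 each), and the log2 fold change was -0.61 (95% interval -0.82 to -0.39, SE 0.11, edgeR adjusted p = 4.1e-05). DDIT4 passed in all 15 alternatives, with log2 fold changes of -0.69 to -0.34, the smallest with the offset and the replicate block together, and adjusted p-values up to 0.030. Its exonic GC content was 58.7%. CA12, a second carbonic anhydrase of the cell surface, BNIP3L, the close relative of BNIP3, and KDM3A, a histone demethylase, did not pass, at -0.01, 0.08 and 0.06 on the log2 scale.

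**Figure D3:**
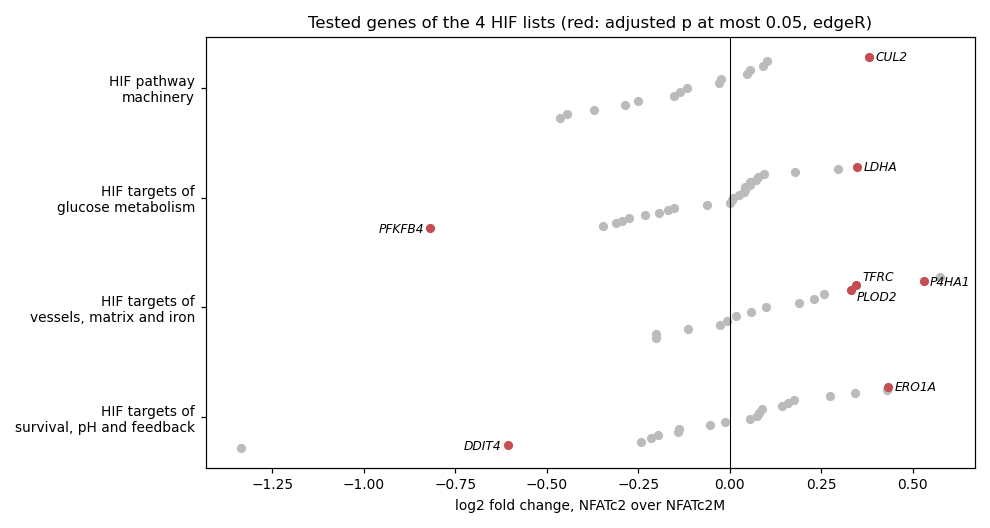
Log2 fold change of NFATc2 over NFATc2M (horizontal axis) of the 75 tested genes in the 4 HIF lists (rows), with the 8 genes past an adjusted p of 0.05 from edgeR in red and named. PFKFB4 (-0.82) and DDIT4 (-0.61) lie left of 0, and the 6 genes that rose lie between 0.33 and 0.53.

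The 6 list genes that rose and HIF1A had exonic GC contents of 36.0% to 43.6%, below the median of 48.7% over all genes tested, and the 2 that fell and NDRG1 had 53.8% to 58.7%. Under the GC content and length offset 0 of the 10 genes passed in edgeR, against 2 without the offset in edgeR, 2 in DESeq2 and 1 in limma voom. At an unadjusted p under 0.05 with the offset were 3 of the 10 genes, beside 3093 of the 17459 genes tested. With the offset 580 of the 17459 genes tested passed. Of the 75 list genes, 6 passed with the offset, of which PFKFB4 and DDIT4 had also passed without it. The other 4 were GAPDH, ALDOA and HMOX1, at 0.33, 0.30 and 0.32 on the log2 scale, and WSB1, a ubiquitin ligase subunit, at -0.47. The part of GC content in the HIF1A and NDRG1 differences was not tested beyond these values.

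**Figure D4:**
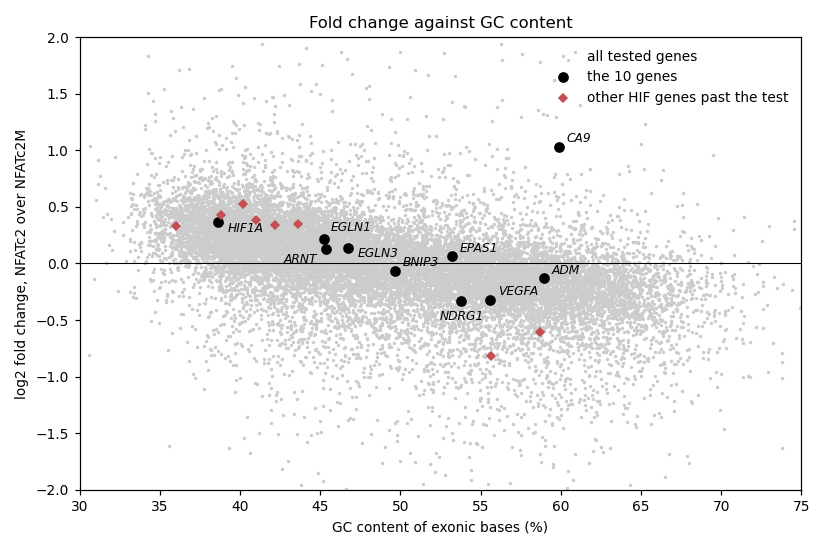
Log2 fold change of NFATc2 over NFATc2M (vertical axis) against the GC content of exonic bases in percent (horizontal axis) for the tested genes (grey points; genes beyond the axes are not drawn), the 10 genes (black, named) and the 8 HIF list genes past the test (red). Fold changes go down with GC content (r = -0.46), HIF1A (38.7%) sits at the low GC end and CA9 (59.9%) is at 1.03.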

How the data were processed

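RNA was sequenced from 2 NFATc2 and 2 NFATc2M libraries of A549 cells, grouped by their titles. The authors captured mRNA on beads, aligned read pairs to GRCh38 with HISAT2, with SAMtools 1.18 for sorting, and obtained reads per Ensembl gene from HTSeq 0.11.2; what they deposited are raw, whole-number counts. Columns named for the samples were used; 4 value columns without sample names were not. HTSeq's summary categories (56.4% to 57.4% of each library) were left out.

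Tests were run on the counts with edgeR 4.0.16 under R 4.3.3 (filterByExpr, TMM, robust quasi-likelihood F test with its default legacy setting, Benjamini-Hochberg over 17459 genes, threshold 0.05). To the 2 residual degrees of freedom of a gene the test adds those borrowed across genes, on which the intervals and p-values largely rest. The fit was also run on counts simulated without a GC trend, which cannot show how such a trend bears on the genes that passed. Standard errors are the fold change over the root of F. Exonic length, GC content and positions came from GENCODE 44, and promoter windows from RefSeq. TPM was computed here from the counts and the joined length of all annotated exons of a gene. The members and lists were chosen with earlier results of these data known. Named genes were the 10 members, NFATC2 and up to 5 genes past the test in each of 4 HIF lists with the smallest p; other list genes were named after their values were seen. Alternatives were DESeq2 1.42.0, limma voom (limma 3.58.1), legacy=FALSE, 3 other scalings, 2 other filters, the replicate number as a block, an offset for GC content and length (splines with 5 degrees of freedom), both together, a fold threshold of 0.26 (log2) and each library left out. A fit without a library assumes that the lone library varies like the other group. Figures were drawn with matplotlib 3.10.9.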

Additional observations from a re-analysis of the deposited data

How the results depend on the processing

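Of 16 alternatives, the count of all genes past the threshold (1508) stayed within 1.5 times in 11; under the GC content and length offset it was 580, 310 of them among the 1508, 794 with the offset and the replicate block, and 73 to 1963 when 1 library was left out (73 without NFATc2M replicate 1). Of the 10 genes, 2 passed; 1 passed with limma voom, with legacy=FALSE and with every gene of at least 1 count, 0 with the offset alone or with the replicate block, and 0 to 2 when 1 library was left out. At 0 calls with the offset, 3 of the 10 genes had an unadjusted p under 0.05 in edgeR, with and without the block. Over all 17459 genes tested 3093 did with the offset alone and 3209 with the block as well. The count over the 4 lists (8) was 2 to 9 when 1 library was left out and 6 to 10 otherwise. The log2 fold change of ADM turned to 0.14 with the offset, with and without the block, and that of PLOD2 to -0.011 in both. Leaving out 1 library gave -0.15 to 0.50 for EGLN3 and -0.19 to 0.012 for NFATC2. The cause was not tested. Whether same-numbered libraries of the 2 groups shared a culture or a batch is not stated. Their deviations correlated by 0.06 across genes, which from 4 libraries cannot decide this. With the replicate block 3 of the 10 genes, 9 list genes and 1759 genes in all passed. Depth limits CA9 and EGLN3, with under 90 counts in every library.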

Other observations

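MIR210HG, the host transcript of a microRNA that HIF induces, had 22 and 15 counts with NFATc2, against 42 and 48 with NFATc2M, a log2 fold change of -1.34 with a 95% interval from -2.28 to -0.39 (edgeR adjusted p = 0.061), which did not pass. It was the lowest log2 fold change among the 75 list genes tested, and the gene was chosen for mention after its values were seen.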
